A study of Mus musculus with 6 samples.

Results

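This account follows 6 genes of the photoreceptor cGMP and calcium loop in whole mouse retina: the membrane guanylate cyclases Gucy2e and Gucy2f, the cyclase activating proteins Guca1a and Guca1b, the cyclase regulator Rd3, and the calcium sensor Rcvrn (recoverin). They were picked by function and matched by exact symbol, and all 6 were found among the 24346 gene symbols listed in each library. The groups are 3 wild-type libraries (Unc119+/+) and 3 knockout libraries (Unc119-/-), each from retina. The sources used here give neither the construction of the knockout allele nor the strain, age, any treatment, or whether a library stands for an animal of its own. What the p-values weigh is thus the spread among these libraries, some of which may be technical.

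Photoreceptors hold their cation channels open with cGMP. Light activates a phosphodiesterase that destroys it, the channels close and calcium falls. The activating proteins then release calcium and switch the cyclases on, which restores cGMP. Recoverin, when bound to calcium, restrains the kinase Grk1, which shuts off the light response, and RD3 binds the cyclases, holds them inactive in the inner segment and helps deliver them to the outer segment. The activating proteins and recoverin carry a lipid (N-myristoyl) tail, and UNC119 is a binding protein for such tails, best known for carrying the transducin alpha subunit. The comparison asks whether the transcripts of this loop differ when Unc119 is lost. mRNA says nothing here about where the proteins sit.

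Expression was deposited as FPKM, fragments normalised to transcript length and library size. The number of fragments behind a value is unknown. Relative depth, read from the low values and set against wild-type replicate 2 as 1, ran from 0.763 to 1 in wild type and from 0.931 to 0.964 in the knockout. Unc119 itself read 1191, 1187 and 1206 FPKM in wild-type replicates 1, 2 and 3, against 510.2, 460 and 449 FPKM in knockout replicates 1, 2 and 3, so transcript of the locus remained at 39.6% of the wild-type mean. The libraries hold retina by their markers: all 20 rod marker genes listed passed the filter. The share of lens genes in the FPKM sum was 0.00596% to 0.225% in 5 libraries and 3.03% in knockout replicate 3. Xist, the X-inactivation RNA of female cells, was at 243 FPKM in wild-type replicate 3 and at 212 and 213 FPKM in knockout replicates 2 and 3, and under 0.07 FPKM in the other libraries. The genotypes therefore differ in how many of their libraries carry it.

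Gucy2e, Gucy2f and Guca1a, taken here for their place in the results, are shown by the sequence just before their start site. They are the members for which each knockout library was below each wild-type library. The stretches run from 150 to 16 bases before the RefSeq start (GRCm38.p6), 5′ to 3′ on the minus strand that all 3 genes use, and lie upstream of the annotated exons of the GENCODE models. Capitals mark the 6-base core bound by CRX, the photoreceptor homeobox factor, TAATCC or its reverse complement GGATTA.
Gucy2e, chr11:69237038-69237172: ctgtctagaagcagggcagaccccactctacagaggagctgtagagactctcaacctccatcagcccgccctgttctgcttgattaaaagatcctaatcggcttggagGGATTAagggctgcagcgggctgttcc
Gucy2f, chrX:142196952-142197086: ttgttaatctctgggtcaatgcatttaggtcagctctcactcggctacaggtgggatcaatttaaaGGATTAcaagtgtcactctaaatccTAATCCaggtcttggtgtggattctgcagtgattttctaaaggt
Guca1a, chr17:47400622-47400756: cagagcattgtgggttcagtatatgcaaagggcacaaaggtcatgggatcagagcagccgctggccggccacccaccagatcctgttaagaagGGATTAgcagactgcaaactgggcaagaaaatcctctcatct

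Over the full RefSeq windows of 300 bases, Gucy2f held 2 such cores, starting 84 and 59 bases before the start site in opposite orientations. Gucy2e and Guca1a each held 1, in reverse orientation, starting 42 and 57 bases before it. Of the 32851 windows of that length in the table, 7.06% held at least 1 core and 0.359% held at least 2. Cores in opposite orientations can share bases, and such a pair counts as 2 in that share. The windows of Rd3 held none, and none of the members' windows held TGCTGA, part of the site of the rod factor NRL, on either strand (19.5% of all windows do). A match is a description of letters and not a measured binding site. Windows were matched for 4 of the 6 genes, the others being Guca1b and Rcvrn. Rd3 was thus the only member with windows outside the genes shown above. A link between cores and levels was not tested.

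No member was called different between the genotypes. The cyclase transcript Gucy2f stood at 83.1% of its wild-type mean in the knockout, and Gucy2e and Guca1a were lower by smaller amounts. Guca1b, Rd3 and Rcvrn overlapped between the genotypes. By limma on log2(FPKM + 1), with adjustment over the 14176 genes averaging 0.5 FPKM or more, 0 of the 6 members had an adjusted p under 0.05, where 0.233% of all genes tested did. At an unadjusted p under 0.05 there was 1 member, Gucy2f, against 9.00% of all genes. The knockout libraries lay wholly below the wild-type libraries for 3 of the 6, against 8.04% of all genes tested, and wholly above for 0 of the 6, against 7.83%. The median log2 change of the 6 was −0.03, beside −0.002 over all genes tested, and their median size of change without sign was 0.07 beside 0.08. As the members were taken by function with results of these libraries known, these counts are a description.

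**Figure D1:**
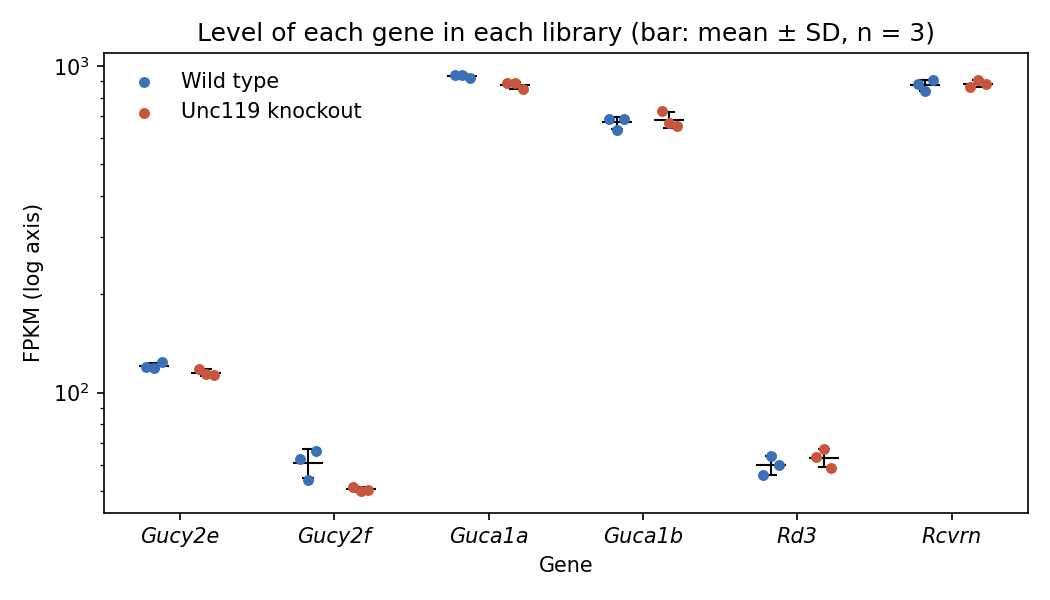
FPKM on a log axis for each gene and library, with wild type in blue, the knockout in red and bars at the mean ± SD (n = 3). Guca1a, Rcvrn and Guca1b sit between 638 and 939.6 FPKM, and Gucy2e, Gucy2f and Rd3 between 49.8 and 124 FPKM.

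Levels per length put the calcium sensors far above the cyclases. This order rests on the transcript lengths used for FPKM, which the sources used here do not state. In wild type the order was Guca1a (932 ± 13.2 FPKM), Rcvrn (873 ± 32.3), Guca1b (671 ± 28.5), Gucy2e (121 ± 2.65), Gucy2f (60.9 ± 6.24) and Rd3 (59.9 ± 4.02; SD, n = 3 each). Guca1a ranked 19th and Rcvrn 20th by mean level among all genes tested, and Guca1b 35th. Gucy2e ranked 462nd. The step from Guca1b down to Gucy2e was 5.55-fold in wild type and 5.94-fold in the knockout. Gucy2f and Rd3 were neighbours in wild type whose ranges overlapped. Guca1a and Rcvrn did not overlap in wild type, where their means were 1.07-fold apart, and overlapped in the knockout. In the knockout Rd3 (63.2 ± 4.05 FPKM) stood above Gucy2f (50.6 ± 0.868 FPKM) in each of the 3 libraries, while in wild type Gucy2f was above Rd3 in 2 of the 3. Together the 6 genes held 0.688% to 0.717% of the FPKM sum in wild type and 0.648% to 0.698% in the knockout, lowest in the library with the most lens RNA, knockout replicate 3.

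Gucy2f encodes GC-F, the second of the paired photoreceptor cyclases, and is the X-linked member (ENSMUSG00000042282.4, mm10 chromosome X, 142081160 to 142196931, minus strand, 20 exons in its only GENCODE transcript). It measured 62.4, 54.0 and 66.2 FPKM in wild-type replicates 1, 2 and 3, against 51.5, 49.8 and 50.4 FPKM in knockout replicates 1, 2 and 3. Each knockout library was below each wild-type library, and wild-type replicate 2 was the wild-type library nearest to them. The wild-type spread was wide, with a coefficient of variation of 10.2% against 1.72% in the knockout. The log2 change was −0.26 (SE 0.07, limma 95% interval −0.43 to −0.09, unadjusted p = 0.0085, adjusted p = 0.389). On the scale of FPKM + 1 that interval runs from −25.6% to −5.82%. The exact two-sided permutation test gave p = 0.1, which is the smallest that 3 libraries against 3 allow. The change was −0.34 without wild-type replicate 2 (adjusted p = 0.135) and −0.18 when the library's lens level entered as a term (adjusted p = 0.908). Without knockout replicate 3, where lens RNA was highest, it was −0.255 (adjusted p = 0.605).

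Since Gucy2f lies on the X chromosome, its values stand beside the Xist level. The wild-type library with Xist had the highest value, 66.2 FPKM, and those without it had 62.4 and 54.0 FPKM. Among the knockout libraries the one without Xist had 51.5 FPKM and those with it 49.8 and 50.4 FPKM. With the Xist level as a term the log2 change was −0.28 (adjusted p = 0.504). In whole retina, fewer rods and less RNA per rod cannot be told apart. The median rod marker, relative to its wild-type mean, was at 0.06, −0.06 and 0.00 in wild-type replicates 1, 2 and 3 and at 0.01, −0.03 and −0.07 in knockout replicates 1, 2 and 3 on the log2(FPKM + 1) scale. Scaled to equal rod marker level, the Gucy2f change was −0.24 (adjusted p = 0.607).

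Gucy2e encodes GC-E, the main cyclase of rods and cones (ENSMUSG00000020890.11, chromosome 11, 69218117 to 69237036, minus strand, 19 exons in its longest coding transcript). It measured 120.1, 119 and 124 FPKM in wild-type replicates 1, 2 and 3, against 118, 114 and 113 FPKM in knockout replicates 1, 2 and 3. The genotypes did not overlap, with a gap of 0.578% of the wild-type mean between the nearest libraries. The log2 change was −0.07 (SE 0.04, 95% interval −0.17 to 0.02, limma adjusted p = 0.640), a range from −10.9% to 1.61%. With the lens term it was −0.04 (adjusted p = 0.984), and the lowest of the 3 knockout values was that of knockout replicate 3. Its change without that library was −0.06 (adjusted p = 0.818).

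Guca1a encodes the activating protein GCAP1 (ENSMUSG00000023982.8, chromosome 17, 47394558 to 47400584, minus strand, 4 exons). It measured 939.6, 939 and 917 FPKM in wild-type replicates 1, 2 and 3, against 885.5, 886 and 848 FPKM in knockout replicates 1, 2 and 3. The knockout libraries were at 91.0% to 95.1% of the wild-type mean, and the nearest libraries of the genotypes lay 3.26% of that mean apart. The log2 change was −0.09 (SE 0.04, 95% interval −0.19 to 0.01, limma adjusted p = 0.573). Knockout replicate 3 was again the lowest, and without it the change was −0.07 (adjusted p = 0.776).

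Guca1b, which encodes GCAP2 (ENSMUSG00000023979.14, chromosome 17, 47385393 to 47392967, plus strand, 4 exons), faces Guca1a tail to tail across 1590 bases. It measured 686, 638 and 689 FPKM in wild-type replicates 1, 2 and 3, against 728, 669 and 653 FPKM in knockout replicates 1, 2 and 3. The groups overlapped, and the highest value of all 6 was that of knockout replicate 1. The log2 change was 0.02 (SE 0.06, 95% interval −0.11 to 0.16, limma adjusted p = 0.915), a range from −7.14% to 11.5%. It took the opposite sign with quantile normalization (−0.05), when wild-type replicate 2 was left out (−0.01) and when knockout replicate 1 was (−0.02).

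Rd3 (ENSMUSG00000049353.17, chromosome 1, 191977370 to 191988283, plus strand, 3 exons) measured 56.0, 64.0 and 59.8 FPKM in wild-type replicates 1, 2 and 3, against 63.5, 67.0 and 59.0 FPKM in knockout replicates 1, 2 and 3. Knockout replicates 1 and 2 were above the wild-type mean and knockout replicate 3 below it. The log2 change was 0.07 (SE 0.07, 95% interval −0.08 to 0.23, limma adjusted p = 0.753), which spans −5.40% to 17.2%. It was 0.03 without wild-type replicate 1 and 0.12 without wild-type replicate 2. An antisense RNA gene, Gm26670, shares 1452 bases with Rd3, and as the sources used here do not say how strand was handled in counting, reads of the pair may not be separated.

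Recoverin's gene Rcvrn (ENSMUSG00000020907.1, chromosome 11, 67695326 to 67703333, plus strand, 3 exons) had the smallest change of the 6. It measured 878.5, 838 and 902 FPKM in wild-type replicates 1, 2 and 3, against 859, 904 and 883 FPKM in knockout replicates 1, 2 and 3, so the groups overlapped. The log2 change was 0.02 (SE 0.05, 95% interval −0.09 to 0.12, limma adjusted p = 0.941), a range from −6.33% to 9.01%. Its sign turned with the Xist term (−0.005), when wild-type replicate 2 was left out (−0.01) and when knockout replicate 2 was (−0.003). The whole gene lies inside Glp2r, a peptide hormone receptor gene on the opposite strand. Glp2r was listed at 10.1 to 11.9 FPKM (wild type) and at 8.53 to 11.3 FPKM (knockout), far under Rcvrn.

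**Figure D2:**
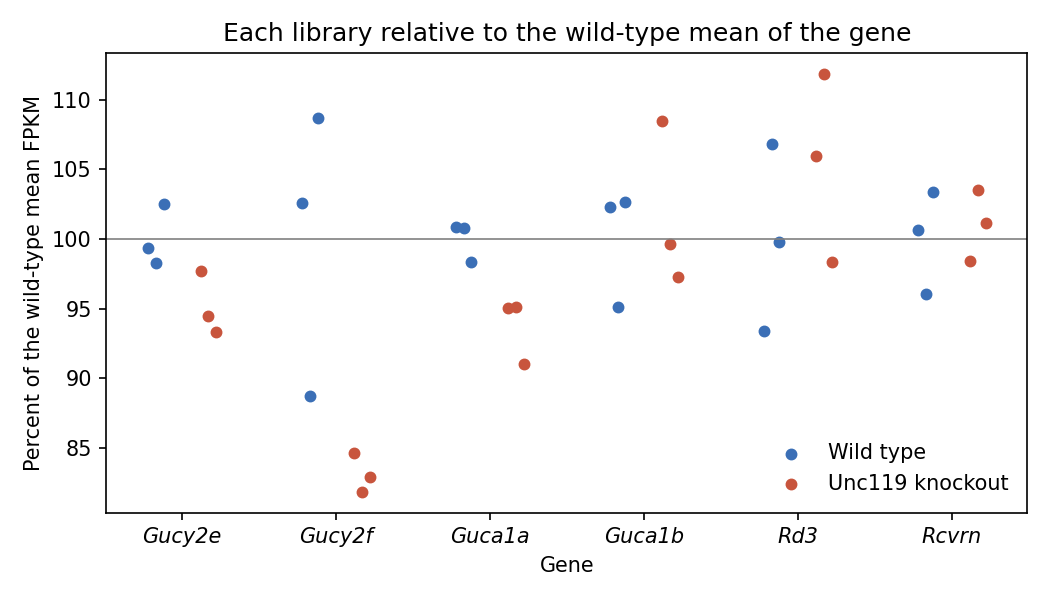
Each library as a percent of the wild-type mean FPKM of the gene, with wild type in blue and the knockout in red. For Gucy2f the knockout libraries sit at 81.9% to 84.7%, below all wild-type libraries, and for Guca1b, Rd3 and Rcvrn the genotypes overlap.

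Ratios within a library cancel what scales all genes of that library alike, and 5 were compared. Gucy2e stood at 1.92, 2.2 and 1.87 times Gucy2f in wild-type replicates 1, 2 and 3 and at 2.29, 2.29 and 2.24 times in knockout replicates 1, 2 and 3. Each knockout ratio was above each wild-type ratio, with a log2 difference of 0.19 beside an SD of 0.12 in wild type and 0.02 in the knockout. Guca1a to Guca1b went the other way, at 1.37, 1.47 and 1.33 in wild type and 1.22, 1.32 and 1.30 in the knockout (log2 difference −0.12), again without overlap. The nearest libraries almost touched, at 1.331 in wild-type replicate 3 and 1.325 in knockout replicate 2. For both paralog pairs the exact two-sided permutation p was 0.1, the smallest possible, or 0.167 after adjustment over the 5 ratios, so neither can pass at this number of libraries.

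Summed activating proteins to summed cyclases measured 8.83 ± 0.348 in wild type and 9.39 ± 0.173 in the knockout (SD, n = 3 each, log2 difference 0.09). The knockout ratios did not overlap the wild-type ones, but the nearest were close, at 9.20 in knockout replicate 3 and 9.13 in wild-type replicate 2. The exact permutation p was the same, 0.1. Rd3 to the summed cyclases measured 0.331 ± 0.0347 and 0.381 ± 0.0245, with overlap (log2 difference 0.21, exact permutation p = 0.2, adjusted 0.25). Recoverin to its target kinase Grk1 measured 2.28 ± 0.125 and 2.37 ± 0.200, with overlap (log2 difference 0.05, exact permutation p = 0.6). The ratios share genes and are not independent.

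**Figure D3:**
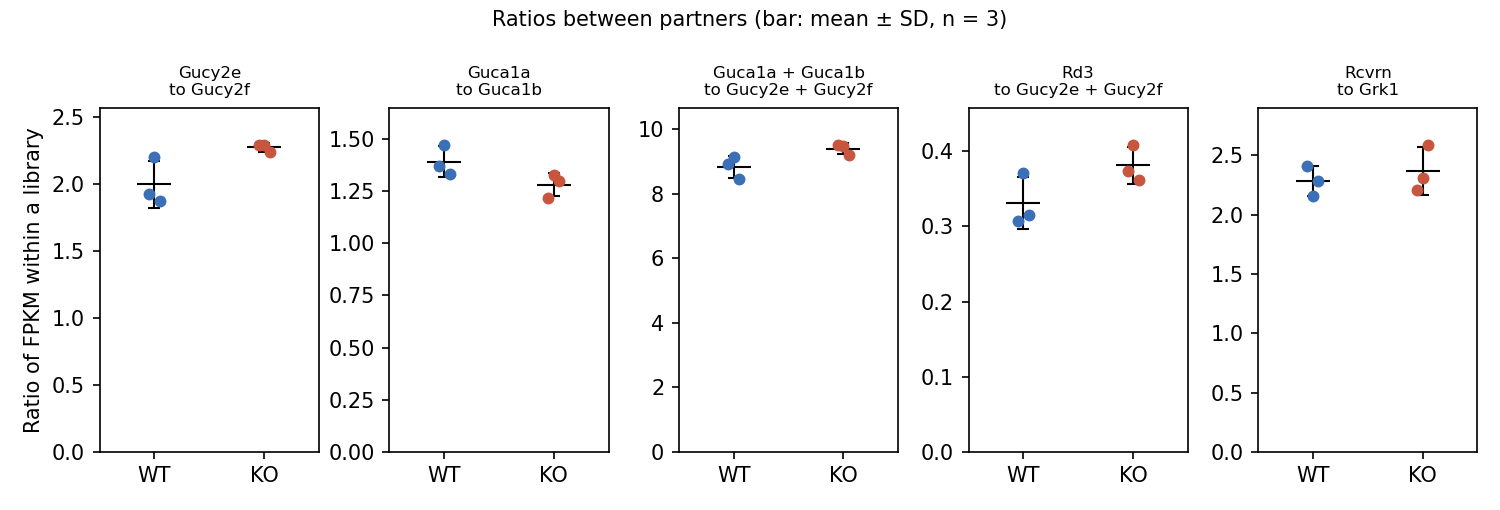
Ratio of FPKM between partner genes within each library, on axes from 0, with wild type (WT) in blue, the knockout (KO) in red and bars at the mean ± SD (n = 3). Gucy2e to Gucy2f is higher in all knockout libraries than in any wild-type one, and Guca1a to Guca1b lower. The nearest libraries of the genotypes lie close, above all for Guca1a to Guca1b.

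The partners of the loop were given by a list of 23 genes: the phosphodiesterase subunits and their chaperone Aipl1, the cGMP-gated channels, the calcium exchangers, Grk1, the calmodulins, GTP supply, the N-myristoyltransferases, and the lipid-tail binding proteins Unc119 and Pde6d. All 23 were tested. After adjustment over all genes 0 were called higher, and the 1 called lower was Unc119, the targeted gene. Of all genes tested, 0.233% were called in either direction. By sign 4 were higher and 19 lower, with a median log2 change of −0.04. This lean was not particular to the loop. It was also found for other calcium sensors (14 of 19 lower) and for amacrine and ganglion cell markers (9 of 12). Among the lists used here, only those of lens (24 higher, 0 lower) and pigment epithelium (8 and 2) leaned the other way. The share of all genes lower by sign is not given here. At an unadjusted limma p under 0.05 there were 3 besides Unc119, against 9.00% of all genes tested. All 3 were lower: the exchanger Slc24a2, Pde6h and the rod channel subunit Cngb1. Of the 23 genes, 5 lay wholly below wild type in the knockout, Unc119 among them, against 8.04% of all genes tested. The list was chosen with earlier results known, so these counts are a description. The inhibitory rod phosphodiesterase subunit Pde6g measured 2509 ± 91.3 FPKM (wild type) and 2408 ± 26.6 FPKM (knockout) (adjusted p = 0.748). The catalytic subunit Pde6b measured 1025 ± 66.0 and 992 ± 36.8 FPKM (adjusted p = 0.840). Pde6h, the inhibitory subunit of cones, had the largest change of the list after Unc119, at 226 ± 21.1 and 195 ± 12.2 FPKM (log2 change −0.21, limma adjusted p = 0.499), and its genotypes overlapped.

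**Figure D4:**
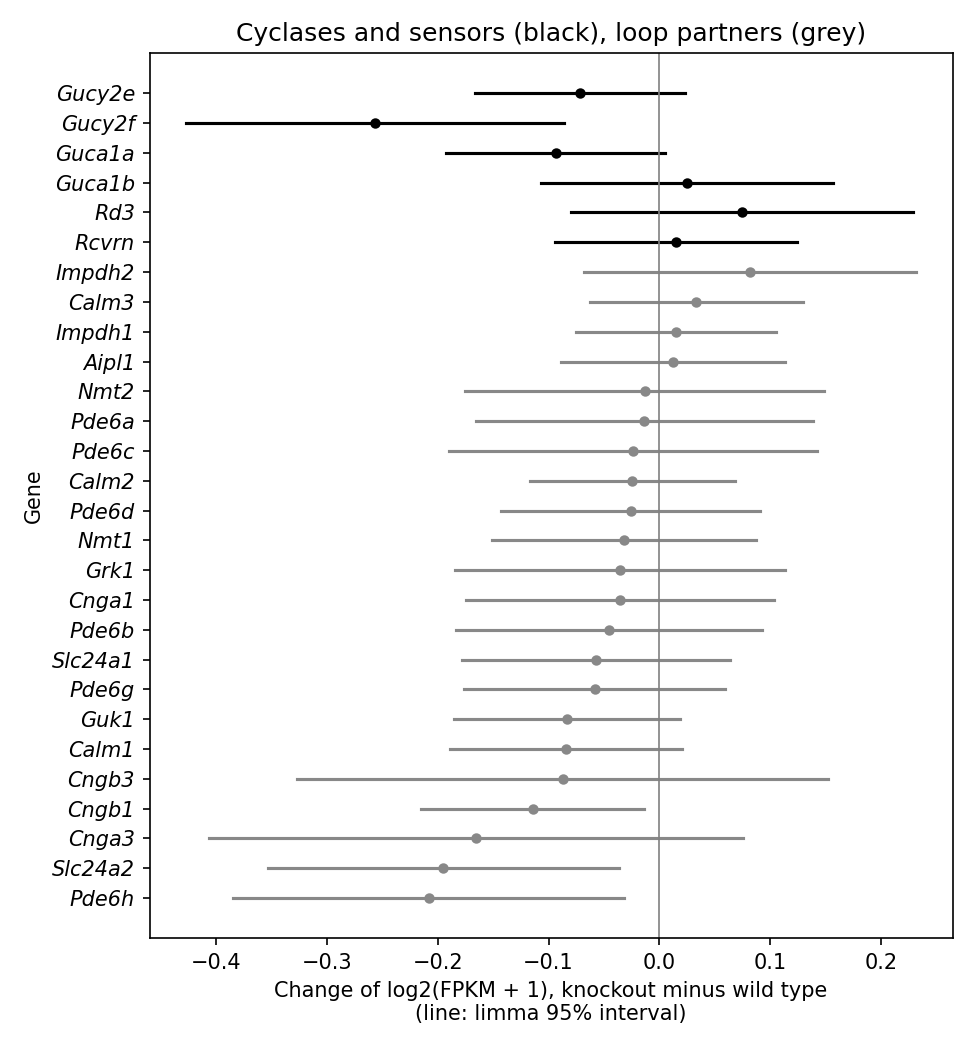
Change of log2(FPKM + 1), knockout minus wild type, with limma's 95% interval, for the 6 genes in black and 22 loop partners in grey (Unc119, at −1.34, is left out). The interval of Gucy2f, −0.43 to −0.09, lies below 0, unadjusted for the number of genes, as do those of 3 partners (Slc24a2, Pde6h and Cngb1), and those of the other 5 members cross 0.

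Guanylate cyclase genes outside the photoreceptor pair were sparse in part: of 16 listed, with their ligands and the Rd3 paralog, 9 passed the filter. By limma 0 were called in either direction, where 0.233% of all genes tested were (median log2 change −0.09). Npr2 and Gucy1a3 had an unadjusted limma p under 0.05, against 9.00% of all genes tested. Of the 9, the knockout lay wholly below wild type for 2, against 8.04% of all genes tested. It lay wholly above for 2, against 7.83%. The paralog Rd3l was the most abundant, at 113 ± 8.44 FPKM (wild type) and 102 ± 11.1 FPKM (knockout) (SD, n = 3 each, adjusted p = 0.637). Rd3l stood above Rd3 in each library, at 1.76 to 2.18 times in wild type and 1.56 to 1.70 times in the knockout. The nitric oxide-sensitive cyclase subunits Gucy1b3 and Gucy1a3 measured 55.5 ± 3.01 and 46.3 ± 1.98 FPKM in wild type, near the level of Gucy2f. Gucy1a3 was lower in each knockout library, at 42.0 ± 0.958 FPKM (log2 change −0.14, limma adjusted p = 0.499). Npr2, the natriuretic peptide receptor cyclase, measured 14.9 ± 0.932 and 16.8 ± 0.881 FPKM (log2 change 0.16, limma adjusted p = 0.551), each knockout library being above each wild-type library. Gucy2d, in the mouse a cyclase of olfactory neurons, was listed at 0 to 0.117 FPKM.

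Other neuronal calcium sensors and retinal EF-hand proteins gave a list of 20, of which 19 were tested. By limma 0 were called, against 0.233% of all genes tested. By sign 5 were higher and 14 lower, with a median log2 change of −0.05. An unadjusted limma p under 0.05 was found for 3 (Kcnip4, Calb1 and Pvalb), against 9.00% of all genes tested. Calb2 (calretinin), of amacrine and ganglion cells, measured 209 ± 15.3 and 195 ± 6.70 FPKM (SD, n = 3 each). Cabp4, a calcium channel regulator of the photoreceptor synapse, measured 159 ± 1.90 and 148 ± 7.41 FPKM, and Cabp5, found in bipolar cells, 80.5 ± 3.89 and 78.2 ± 3.94 FPKM. The largest changes were those of Pvalb (parvalbumin, 12.0 ± 0.919 and 10.1 ± 0.889 FPKM, log2 change −0.23, limma adjusted p = 0.513) and Calb1 (calbindin, 23.1 ± 1.24 and 20.0 ± 2.22 FPKM, log2 change −0.20, limma adjusted p = 0.549). Guca1a and Rcvrn were above each of the 20 in FPKM.

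Markers of the other retinal cells stand beside these values. The summed FPKM of 12 cone markers was 1074 to 1146 in wild type and 1147 to 1194 in the knockout, and 1 was called higher, the transducin beta subunit Gnb3 (185 ± 6.40 and 303 ± 9.12 FPKM, limma adjusted p = 0.0012). Without Gnb3, left out with its result known, the sum was 838 to 885.6 in the knockout and 887.4 to 955 in wild type. The nearest libraries of the genotypes thus almost touched. By sign 9 of the 12 were lower (median log2 change −0.09). That of 12 bipolar markers, led by Gng13, was 805 to 890 and 801 to 842, and that of 9 Müller glia markers, led by Glul, 1481 to 1578 and 1439 to 1499. For 12 markers of amacrine and ganglion cells, led by Nefl, it was 538 to 578 and 532 to 536, so these sums did not overlap either. By sign 9 of these 12 were lower (median log2 change −0.11). An unadjusted limma p under 0.05 was found for 5 of them, 4 being lower, against 9.00% of all genes tested. The lens list, led by Cryaa, ran from 22.9 to 865.5 in wild type and from 306 to 12175 in the knockout, and the pigment epithelium list, led by Ttr, from 36.2 to 63.9 and from 28.6 to 139.8. The part of any of these in the changes of the 6 genes was not tested beyond the lens and rod settings given.

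The genes of most like pattern were sought among 7529 genes with a mean of at least 10 FPKM, by the mean absolute difference between centred log2(FPKM + 1) values over the 6 libraries. For Gucy2f they were A930003A15Rik (0.03; 82.4 ± 7.55 and 66.7 ± 3.11 FPKM) and Fam3c (0.03; 101 ± 9.46 and 81.0 ± 3.27 FPKM; SD, n = 3 each). Both were picked for a pattern like that of Gucy2f, so their low value in wild-type replicate 2 is not a separate result. For Gucy2e they were Senp2 and Ube2e3, for Guca1a Nrxn3 and M6pr, for Guca1b Trappc11 and Dcaf7, for Rd3 Trabd and Cope, and for Rcvrn Idh3b and Tsc1, at differences of 0.006 to 0.021. Among the 6 genes the most alike pair was Gucy2e with Guca1a (0.034), and the least alike Gucy2f with Rd3 (0.197).

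**Figure D5:**
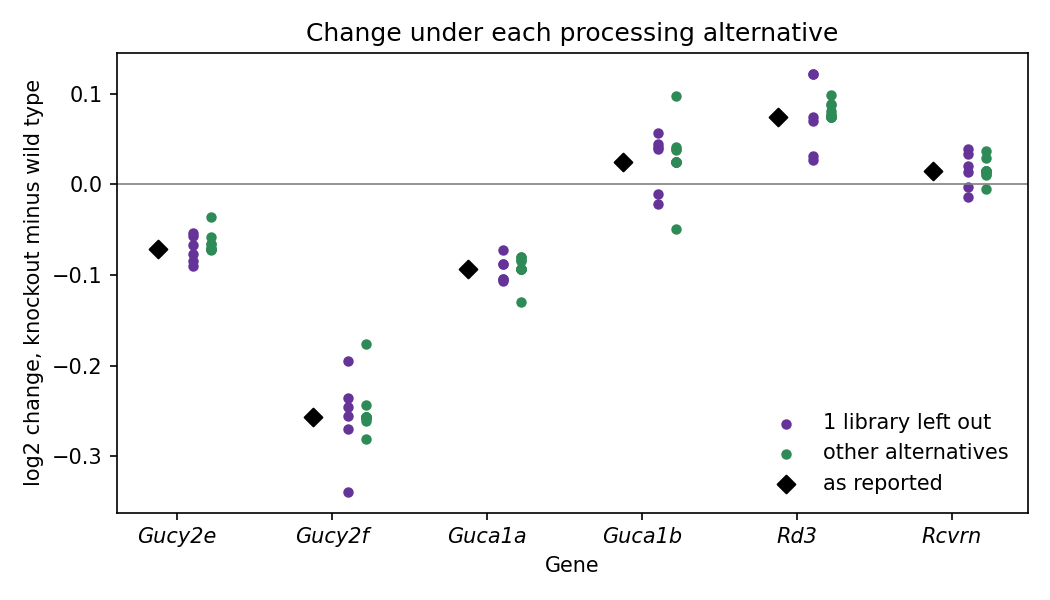
log2 change of each gene as reported (diamond), with 1 library left out (purple) and under the other alternatives (green). Gucy2f stays between −0.34 and −0.18, Gucy2e and Guca1a stay below 0, and the points of Guca1b and Rcvrn lie on both sides of 0.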

How the data were processed

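RNA of 3 wild-type and 3 Unc119 knockout retina samples was compared. Per the labels' protocols, RNA was isolated with TRIzol and libraries came from a stranded mRNA kit. Per the submitters' processing notes, TopHat2 2.1.1 and Cuffdiff 2.2.1 were used on mm10. The authors deposited 1 FPKM value per gene symbol and library, per the file headers. The sources used here state no annotation, strand setting or scaling between libraries. FPKM values are not counts, so depth enters no test.

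From these values, log2(FPKM + 1) of genes averaging 0.5 FPKM or more was fitted by limma 3.58.1 in R 4.3.3 with a prior variance trend, two-sided, with Benjamini-Hochberg adjustment over 14176 genes and a threshold of 0.05. The fit was also run on simulated data, with independent noise of equal spread in both genotypes. That run held no library rich in lens RNA and does not speak to such features here. Ratios were tested by exact permutation (scipy 1.17.1, Python 3.11.15). Coordinates are GENCODE vM21 (GRCm38, the mm10 build), and promoter sequences RefSeq's. Same-numbered libraries were not paired: their deviations from the group means correlated at 0.07, −0.09 and −0.12.

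The members and gene lists were chosen with earlier results of these data known. Named are Unc119, the 6 members, in each of the 3 pathway lists the called genes, the 3 most abundant and the 2 of largest change, the 2 most like genes of each member, and the most abundant gene of each marker list (1 of these is not reported here). Other names (Xist, Grk1, Gucy2d, Kcnip4, Slc24a2, Cngb1, Gm26670 and Glp2r) were added for the comparison beside them. Alternatives were another pseudocount, other filters and scalings, added terms, library weights and leaving out each library.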

Additional observations from a re-analysis of the deposited data

How the results depend on the processing

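No member was called under any of the 16 alternatives. Gucy2e, Gucy2f, Guca1a and Rd3 kept their direction in all 16. Not all of these could turn it. The filters and the replicate block cannot move the change of a gene, only its p-value. Median-of-ratios scaling left it almost as it was. Gucy2f ranged from −0.34 to −0.18 with adjusted p from 0.135 to 0.908. With 1 library left out, Guca1b ranged from −0.021 to 0.057, Rcvrn from −0.014 to 0.039, and the log2 difference of the Rcvrn to Grk1 ratio from −0.016 to 0.10. The sign turned for Guca1b with quantile normalization (−0.049), without wild-type replicate 2 (−0.011) and without knockout replicate 1 (−0.021). It turned for Rcvrn with the Xist term (−0.0053), without wild-type replicate 2 (−0.014) and without knockout replicate 2 (−0.0027), and for the Rcvrn to Grk1 ratio without knockout replicate 3 (−0.016). The cause was not tested. The other 4 ratios kept their direction in all 8 alternatives. Of these, the replicate block cannot move the difference, and the pseudocount moved it little at these levels. The log2 difference of Guca1a to Guca1b was −0.12, and −0.077 without wild-type replicate 2, and that of the summed activating proteins to cyclases 0.09, and 0.059 without wild-type replicate 3.

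Over all genes, 29 were called higher and 4 lower. With the rod scaling 18 and 2 were called, with the Xist term 18 and 2, with the lens term 5 and 2, and with no filter on low values 2 lower. With the replicate block, 13 were called higher and 2 lower, and Gucy2f stood at −0.26 (adjusted p = 0.471). Not every library correlated best with its own number. Leaving out 1 library gave 9 to 14 higher and 2 to 4 lower, with fewer samples in each fit. Depth is unknown in absolute terms, and 3 libraries against 3 cannot bring an exact permutation p under 0.1.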
